A study of Mus musculus with 6 samples.

Results

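The genes described here are the protein-coding mouse genes whose symbol is Gpr followed by a number, the name given to G protein-coupled receptors before a ligand was known. They were chosen by level alone: a gene was kept where its summed read count over the 6 libraries was at least 30, which 35 of 73 such genes reached. Over the whole series, 55263 genes had an annotated transcript in the count table, and 11665 protein-coding genes reached the same 30 counts. The members just inside that minimum were Gpr34 with 38 counts, Gpr179 with 34 and Gpr19 with 33, and the genes just outside it were Gpr1 and Gpr62 with 22 counts each and Gpr35 with 17. Of the 38 genes under the minimum, 17 had no count in any library, which allows up to 3 counts for each.

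G protein-coupled receptors cross the membrane as a bundle of helices, and a bound ligand makes them switch on heterotrimeric G proteins, which raise or lower cyclic AMP or calcium in the cell. Arrestins and receptor kinases then end the signal. In macrophages, receptors of this naming series are known as sensors of fatty acids, lysophospholipids, oxysterols and protons, so "orphan" is a historical name for several of them. Gpr107, Gpr108, Gpr137 and its relatives, Gpr155, Gpr180 and Gpr89 are membrane proteins that mostly sit in the Golgi or the lysosome and are not classical receptors.

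RNA was sequenced from bone marrow-derived macrophages, which are cells matured in culture from mouse marrow. The groups were LPS with HACA, LPS alone and control, with 2 libraries in each of the 3 groups. LPS is the bacterial lipopolysaccharide that activates macrophages through Toll-like receptor 4, and HACA is the label of an agent that is not spelled out there. The series title names a hyaluronic acid nanomedicine for a mouse model of psoriasis. The genotype label reads wild type for the control libraries and holds the treatment for the others. No dose, time, sex or age is given, and nothing says whether libraries of 1 group came from separate mice or cultures, so the p-values reflect the spread among these libraries alone, which may be technical.

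Library totals were 13933604 and 13007575 counts in LPS+HACA, 12529874 and 15379496 in LPS, and 13806911 and 13036776 in control. Lyz2, a macrophage lysozyme, had 30400 to 47800 CPM, the count scaled to library size, in every library, whereas Adgre1, which encodes the macrophage antigen F4/80, stayed between 0.394 and 0.674 CPM. Cd3e of T cells and Ly6g of neutrophils had no count, but other genes of both lists did, among them Cd3d and the neutrophil granule gene Ngp, at 3.77 to 48.6 CPM. Summed stromal markers were 50 and 1.35 CPM in LPS+HACA, 32.5 and 2.60 in LPS, and 47.4 and 1.72 in control, so replicate 1 was the higher library in each group. Summed cell cycle genes were also higher in replicate 1, at 1610 and 412 CPM in LPS+HACA, 2090 and 1100 in LPS, and 833 and 233 in control, whereas neutrophil markers were higher in replicate 2, with sums of 4.98 and 37.7 CPM in LPS+HACA, 14.1 and 65.2 in LPS, and 7.59 and 40.9 in control.

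On the per-length scale of the authors' FPKM, the most abundant member differed between groups. Gpr84 ranked first in LPS+HACA and in LPS, at 68.2 ± 5.68 and 357 ± 96.4 FPKM, and ranked 7 in control, at 19.0 ± 1.47 FPKM (SD, n = 2 each). Gpr107 ranked first in control, at 52.7 ± 2.03 FPKM, with Gpr137b at 47.1 ± 1.74 and Gpr65 at 44.3 ± 10.9 FPKM after it (SD, n = 2). The control libraries of Gpr65, at 36.6 and 52.0 FPKM, overlapped those of both neighbours, while Gpr107 and Gpr137b did not overlap. Further down, Gpr132 averaged 31.2, Gpr141 24.5 and Gpr183 22.8 FPKM in control, and the last pair overlapped. Over all libraries 8 members averaged at least 10 FPKM, and 9 stayed under 1 FPKM in each library. These levels are a description, since level chose the members. Reads on bases shared by transcripts appear to be missing, also from FPKM. The share of exonic bases that belong to 1 transcript was 81.2% for Gpr107, 36.5% for Gpr137b and 75.3% for Gpr65. Whether this affects their order was not tested.

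**Figure D1:**
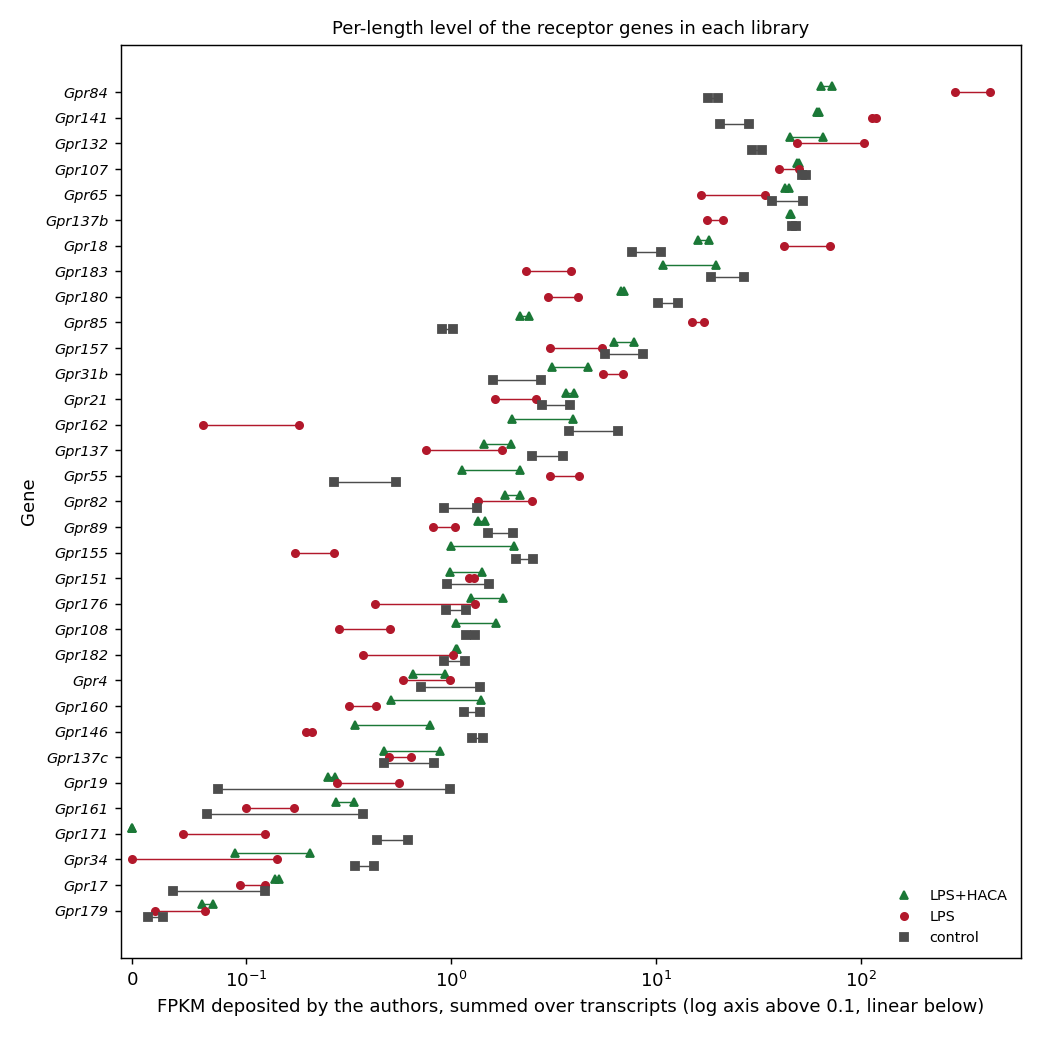
The authors' FPKM of 33 receptor genes, summed over its transcripts, with a point per library and the 3 groups in separate colours; the axis is logarithmic above 0.1 FPKM and linear below. Gpr84 reached 288 and 425 FPKM in the LPS libraries, above every other gene shown.

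LPS against control asks which of these genes macrophages express differently after LPS. Of the 35 members, 33 passed the low-count filter and were tested, while Gpr179 and Gpr19 did not pass. Adjusted p was under 0.05 for 14 of the 33 (42.4%), 7 higher and 7 lower, beside 30.1% of the 17113 genes tested, of which 15.9% were higher and 14.3% lower. The median log2 fold change was -0.62 over the 33 and -0.05 over all genes tested. The groups did not overlap for 23 of the 33, beside 66.7% of all genes. The split depends on the scaling: scaled by library totals alone, the median of all genes shifts to -0.69 and the members' calls become 5 higher and 15 lower. In bulk RNA, fewer cells of a type and less RNA per cell cannot be told apart.

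LPS+HACA against LPS asks how the same genes differ when HACA accompanies LPS, and it shares the LPS libraries with the first comparison. Here 8 of 33 tested members were called (24.2%), 4 higher and 4 lower, beside 13.4% of all genes, with 5.74% higher and 7.67% lower. The median log2 fold change was 0.52 over the 33 and 0.06 over all genes, and 22 of the 33 had groups that did not overlap, beside 57.7% of all genes. Scaled by library totals, the median of all genes shifts to 0.70 and the calls become 11 higher and 3 lower. All 8 called members had also been called in LPS against control, each in the opposite direction. Because the LPS libraries enter both comparisons with opposite sign, this count supports nothing by itself.

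**Figure D2:**
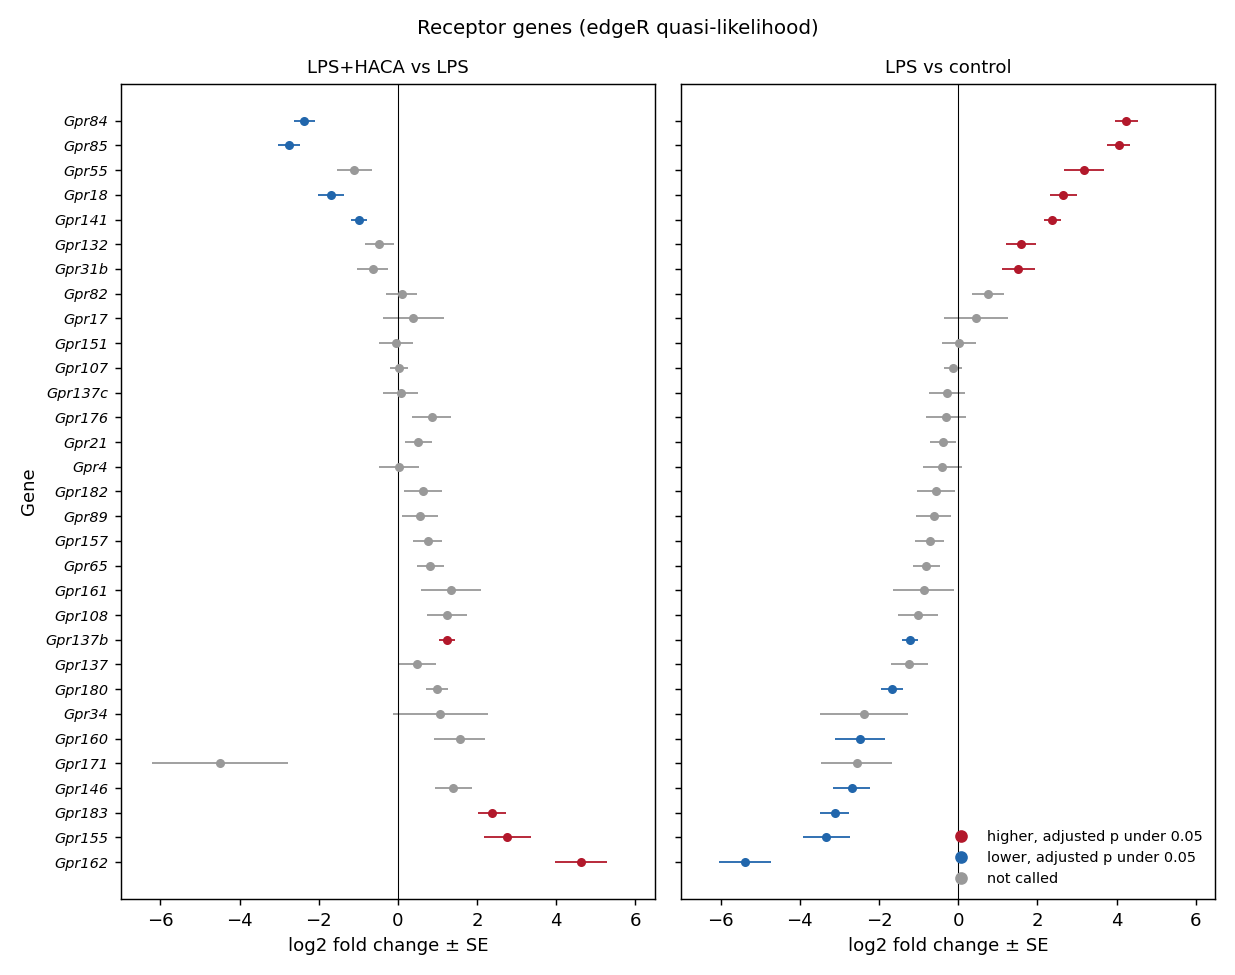
Log2 fold change with its standard error for 31 of the 33 tested receptor genes in LPS+HACA against LPS and in LPS against control, a panel each; red points were higher and blue points lower at an adjusted p under 0.05. The values run from 4.25 for Gpr84 to -5.38 for Gpr162 in LPS against control.

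The 250 bases before the RefSeq start site (GRCm38.p6) were searched on both strands for the kB motif, for a motif of the interferon-stimulated response element, 2 GAAA blocks set 2 bases apart, and for the letters TGANTCA of AP-1, CACGTG of E-boxes and GAGGAAGT of PU.1-type sites. RefSeq promoters were matched for 25 of 35 members. Of 32851 windows of all genes, 3.90% held the kB motif, 2.98% the interferon-type motif, 6.75% TGANTCA, 6.02% CACGTG and 2.44% GAGGAAGT. Of the 7 members higher in LPS, which were Gpr84, Gpr85, Gpr55, Gpr18, Gpr141, Gpr132 and Gpr31b, 1 held the interferon-type motif and 2 held GAGGAAGT, and none held the others. Of the 5 lower members with a window, none held any of them. Of the 11 members not called, 2 held GAGGAAGT, and of the 2 not tested 1 held the interferon-type motif. Members are counted by gene over all their windows, whereas the shares of all genes are by window. Shown, as the sequence before the start of genes that rose, are the 4 of the 7 higher members whose window holds no annotated exon, all on the minus strand, written from the most distant base to the base before the start, with matches in capitals. Gpr18 (chr14:121915889-121916138) matched the interferon-type motif from base -41 to -32, Gpr55 (chr1:85961056-85961305) matched GAGGAAGT on the other strand from -105 to -98, and Gpr85 (chr6:13839943-13840192) and Gpr141 (chr13:19824258-19824507) held no match. A match is a description of letters and not of binding.
Gpr18: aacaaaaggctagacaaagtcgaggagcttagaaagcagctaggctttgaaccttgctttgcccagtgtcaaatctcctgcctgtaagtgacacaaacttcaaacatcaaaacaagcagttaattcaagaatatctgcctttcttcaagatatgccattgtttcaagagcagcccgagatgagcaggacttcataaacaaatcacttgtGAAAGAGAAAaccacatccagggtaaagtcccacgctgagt
Gpr55: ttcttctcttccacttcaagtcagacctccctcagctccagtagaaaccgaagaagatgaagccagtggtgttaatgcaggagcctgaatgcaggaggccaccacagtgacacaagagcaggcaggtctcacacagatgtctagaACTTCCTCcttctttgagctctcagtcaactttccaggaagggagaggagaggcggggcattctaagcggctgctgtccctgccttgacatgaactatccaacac
Gpr85: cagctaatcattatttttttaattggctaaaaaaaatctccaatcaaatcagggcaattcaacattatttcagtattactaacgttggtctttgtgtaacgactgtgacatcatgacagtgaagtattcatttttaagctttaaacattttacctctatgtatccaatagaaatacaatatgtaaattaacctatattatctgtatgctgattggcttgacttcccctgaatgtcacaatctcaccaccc
Gpr141: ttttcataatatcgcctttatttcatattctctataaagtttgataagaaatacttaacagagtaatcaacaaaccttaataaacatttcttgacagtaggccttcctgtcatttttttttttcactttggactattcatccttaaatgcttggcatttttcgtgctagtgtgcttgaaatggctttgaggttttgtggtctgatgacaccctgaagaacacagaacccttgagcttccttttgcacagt

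Among lipid-sensing receptors, 5 of 8 tested rose in LPS against control and 1 fell, with a median log2 fold change of 1.55 that stayed positive, at 0.87 with 3 higher calls, when libraries were scaled by their totals. Set against LPS, LPS+HACA had 1 of the 8 higher and 2 lower, with a median of -0.55 that turns to 0.11 with library totals. Called shares of the 8 were 75% and 37.5% in these comparisons, beside 30.1% and 13.4% of all genes. Gpr84 (chr15:103308235-103310612, GRCm38, as for all gene positions here), a Gi-coupled receptor for medium-chain fatty acids, had 112 and 134 CPM in LPS+HACA, 497 and 769 in LPS, and 31.1 and 35.5 in control. No groups overlapped, and the LPS+HACA libraries lay between the others. Its log2 fold change was 4.25 ± 0.29 (SE) in LPS against control (adjusted p = 0.000153), and -2.36 ± 0.27 in LPS+HACA against LPS (adjusted p = 0.00399). Gm49482, annotated on the opposite strand across its exons, had at most 6 counts in any library.

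Gpr18 (chr14:121911253-121915781), for which N-arachidonoyl glycine and resolvin D ligands have been reported, had 24.3 and 29.3 CPM in LPS+HACA, 62.9 and 111 in LPS, and 11.5 and 16.2 in control. The order of the groups was that of Gpr84, again without overlap. The log2 fold change of Gpr18 was 2.65 ± 0.34 in LPS against control (adjusted p = 0.00133) and -1.70 ± 0.33 in LPS+HACA against LPS (adjusted p = 0.0175). The second call was lost without LPS+HACA replicate 1 (adjusted p = 0.117) and without replicate 2 (adjusted p = 0.0673).

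Gpr55 (chr1:85938318-85961007), a receptor for lysophosphatidylinositol, had 4.25 and 8.72 CPM in LPS+HACA, 11.3 and 16.4 in LPS, and 1 and 2.05 in control. It was higher in LPS than in control by 3.18 ± 0.50 on the log2 scale (adjusted p = 0.00304). The value was 3.78 without control replicate 2, 2.73 without control replicate 1 and 2.51 with library totals. The difference of LPS+HACA from LPS, -1.10 ± 0.45, did not pass (adjusted p = 0.146), although the libraries did not overlap.

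Gpr31b, whose human counterpart has been reported to bind a hydroxy fatty acid, had 4.07 and 6.42 CPM in LPS+HACA, 7.09 and 9.25 in LPS, and 2.07 and 3.64 in control. It was called higher in LPS than in control, with a log2 fold change of 1.52 ± 0.41 (adjusted p = 0.0254). That call was lost when libraries were scaled by their totals (adjusted p = 0.119), without control replicate 1 (0.183) or 2 (0.0586), and without LPS replicate 2 (0.066).

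Gpr132 (chr12:112850873-112868228), linked to oxidised fatty acids, lactate and acid, had 102 and 158 CPM in LPS+HACA, 115 and 245 in LPS, and 56.8 and 63.7 in control. LPS lay above control, but its own libraries were far apart and overlapped LPS+HACA. The log2 fold change was 1.58 ± 0.38 in LPS against control (adjusted p = 0.0165), and the call did not hold with library totals (adjusted p = 0.0676) or with control replicate 1 (0.116) or 2 (0.0923) left out. Without LPS replicate 2 the value was 0.94 (adjusted p = 0.0422). In LPS+HACA against LPS it was -0.47 (adjusted p = 0.426), and its sign turns, to 0.21, with library totals.

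Gpr183 (chr14:121952551-121965195), known as EBI2, guides immune cells along gradients of dihydroxylated cholesterol. It was the lipid sensor called lower in LPS, with 37.5 and 21.0 CPM in LPS+HACA, 6.60 and 4.72 in LPS, and 53.2 and 45.4 in control. LPS was the lowest group, and no libraries overlapped between groups. The log2 fold change was -3.12 ± 0.36 in LPS against control (adjusted p = 0.000823) and 2.37 ± 0.35 in LPS+HACA against LPS (adjusted p = 0.00807). Gpr183 and Gpr18 lie on the same strand, both inside Ubac2, which is read from the opposite strand. Ubac2 had 612 and 589 counts in LPS+HACA, 464 and 474 in LPS, and 630 and 578 in control.

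Enzymes that make the Gpr183 ligand were read beside it. Ch25h, the cholesterol 25-hydroxylase that starts its synthesis, had 4.86 and 3.45 CPM in LPS+HACA, 39.5 and 15.8 in LPS, and 0.565 and 0.0661 in control. It was higher in LPS than in control by 6.39 ± 0.78 on the log2 scale (adjusted p = 0.0013). In LPS+HACA it was lower than in LPS by a log2 fold change of -2.73 ± 0.61 (adjusted p = 0.0284), a call lost with library totals (adjusted p = 0.0526). Cyp27a1, which adds a hydroxyl to the cholesterol side chain, was lower in LPS than in control by -1.82 ± 0.38 (adjusted p = 0.00979). Between LPS+HACA and LPS it was not called, at 1.24 (adjusted p = 0.0659), but was higher with library totals, at 1.92 (adjusted p = 0.0127), so the list turns from 0 higher and 1 lower to 1 higher and 0 lower. Cyp7b1 and Hsd3b7, of the later steps of making and degrading the ligand, did not pass the low-count filter.

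Among proton-sensing receptors only Gpr132 of 4 tested was called in LPS against control, and none in LPS+HACA against LPS. The shares were 25% and 0%, beside 30.1% and 13.4% of all genes. That picture depends on the scaling, since with library totals 0 were higher and 2 lower in LPS against control, and 1 was higher in LPS+HACA against LPS. Gpr65, which raises cyclic AMP in acid surroundings, had 93.1 and 94.5 CPM in LPS+HACA, 70.3 and 36.0 in LPS, and 76.0 and 110 in control. LPS was the lowest group without overlap, but the log2 fold change of -0.81 ± 0.34 did not pass (adjusted p = 0.109). Gpr4, another acid sensor, had 2.73 and 2.03 CPM in LPS+HACA, 1.67 and 2.99 in LPS, and 2.07 and 4.10 in control, and its groups overlapped.

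Receptors with no settled ligand held some of the widest differences. Gpr85 (chr6:13834458-13839942), one of the most conserved receptors among vertebrates and best known from brain, had 5.95 and 7.17 CPM in LPS+HACA, 49.3 and 38.9 in LPS, and 2.57 and 2.71 in control. LPS stood far above the other groups, and LPS+HACA lay above control without overlap. For Gpr85 the log2 fold change was 4.06 ± 0.29 in LPS against control (adjusted p = 0.000159) and -2.75 ± 0.27 in LPS+HACA against LPS (adjusted p = 0.00272). Within the gene, 34.5% of exonic bases belong to 1 transcript, which bears on its count because reads over shared bases appear to be missing from the table.

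Gpr141 (chr13:19749682-19824257), expressed in myeloid cells and still without a ligand, had 173 and 189 CPM in LPS+HACA, 357 and 356 in LPS, and 77.4 and 59.9 in control. LPS+HACA lay between LPS and control, and no groups overlapped. Its log2 fold change was 2.38 ± 0.22 in LPS against control (adjusted p = 0.000364) and -0.98 ± 0.21 in LPS+HACA against LPS (adjusted p = 0.0245). The second call was lost with library totals, where the value was -0.33 (adjusted p = 0.292). It was also lost without control replicate 1 (adjusted p = 0.0586) or 2 (0.0587) and without LPS+HACA replicate 1 (0.168) or 2 (0.111).

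Gpr162 (chr6:124858444-124863983), an orphan receptor studied mainly in brain, had 7.17 and 14.9 CPM in LPS+HACA, 0.197 and 0.674 in LPS, and 13.3 and 23.8 in control. These values rest on 118 and 221 counts in LPS+HACA, 2 and 7 in LPS, and 212 and 360 in control, and 97.0% of all of them fell on a transcript annotated as retained intron. In Gpr162 27.3% of exonic bases belong to 1 transcript, so its count leaves out reads on shared bases. LPS was nearly empty, while LPS+HACA and control overlapped. The log2 fold change was -5.38 ± 0.65 in LPS against control (adjusted p = 0.00101) and 4.63 ± 0.65 in LPS+HACA against LPS (adjusted p = 0.00685). Without LPS replicate 1 these were -4.76 and 4.01, without LPS replicate 2 they were -6.49 and 5.75, and without LPS+HACA replicate 2 the second was 4, with every call kept. The ratio of summed, scaled counts in LPS+HACA to LPS was 24.7, with a 95% counting interval of 12.9 to 54.6 that covers counting error only.

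By Pearson's r of log2 CPM over the 6 libraries, the genes most like Gpr162 among 8700 compared were Mrpl33 (r = 0.9985), B3gntl1 (0.9983) and Zbtb1 (0.9966). They share the libraries and their depth with Gpr162, and their range was far narrower. Mrpl33, a mitochondrial ribosomal protein gene, had 14.6 and 17.0 CPM in LPS+HACA, 8.87 and 10.5 in LPS, and 17.0 and 18.5 in control.

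Gpr146, which in mouse liver has been tied to lipoprotein secretion, had 3.10 and 1.56 CPM in LPS+HACA, 0.887 and 0.867 in LPS, and 5.96 and 5.49 in control. It was lower in LPS than in control, with a log2 fold change of -2.69 ± 0.47 (adjusted p = 0.00444), and 1.40 ± 0.47 in LPS+HACA against LPS did not pass (adjusted p = 0.0885). In Gpr146 7.09% of exonic bases belong to 1 transcript, so its count leaves out reads on shared bases. Its gene lies inside 3110082I17Rik on the opposite strand, which had 24 and 8 counts in LPS+HACA, 2 and 0 in LPS, and 59 and 44 in control. In the annotation, no exon of another gene overlaps the exons of Gpr146. The sources used here do not say whether counting used strand, and whether reads of the host gene enter the Gpr146 count was not tested.

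Gpr160, reported in rodents as a receptor for the CART peptide, had 1.58 and 0.744 CPM in LPS+HACA, 0.394 and 0.385 in LPS, and 1.76 and 2.65 in control. Its log2 fold change of -2.47 ± 0.63 in LPS against control was called (adjusted p = 0.021). The call was lost without control replicate 1 (adjusted p = 0.0589) or 2 (0.132), without LPS replicate 2 (0.0585), and in limma-voom. Its most counted transcript alone, annotated as retained intron, gave -3.56 (adjusted p = 0.0116).

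**Figure D3:**
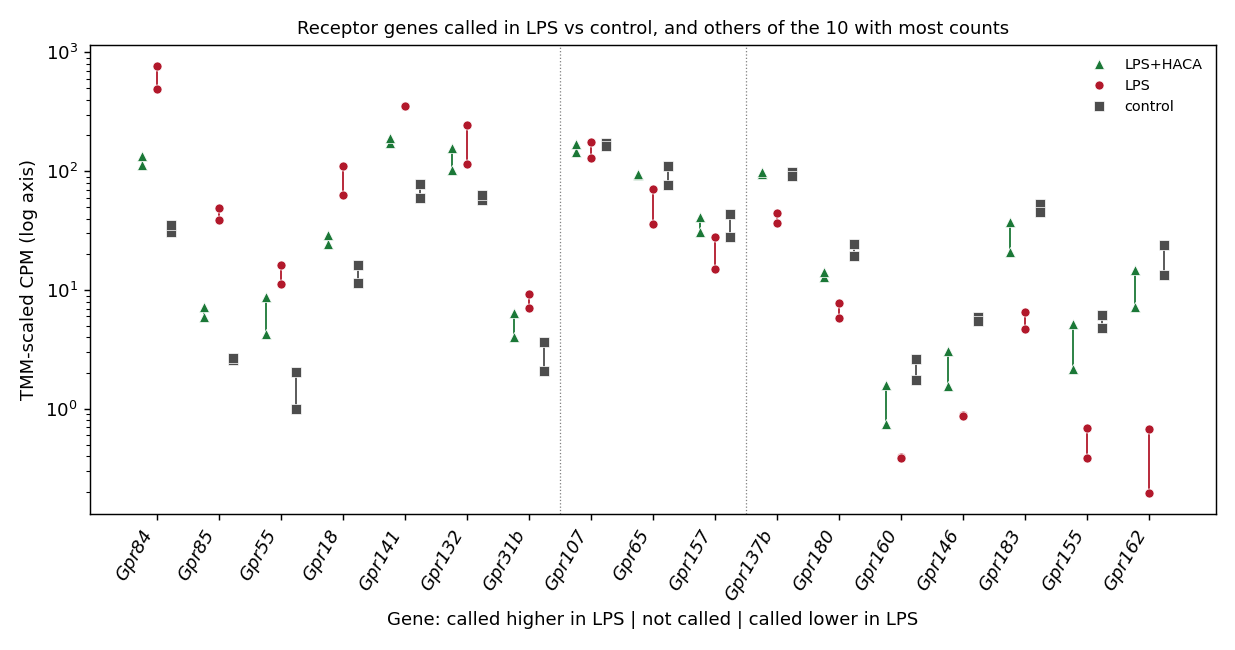
TMM-scaled CPM on a log axis in each library for the 14 receptor genes called in LPS against control and for others of the 10 most counted, with the groups in separate colours. Gpr84 and Gpr85 show LPS far above LPS+HACA and control, and Gpr162 shows LPS below both, at 0.197 and 0.674 CPM.

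Of the Golgi and lysosome membrane proteins, 3 of 8 tested fell in LPS against control and 0 rose, with a median log2 fold change of -1.11. With library totals 7 of 8 were lower. In LPS+HACA against LPS 2 rose and 0 fell (median log2 fold change 0.77), against 5 risers with library totals. Without that scaling 37.5% and 25% of the 8 were called in these comparisons, beside 30.1% and 13.4% of all genes. Gpr137b, a lysosomal protein that binds Rag GTPases of the mTORC1 pathway, had 94.8 and 97.7 CPM in LPS+HACA, 37.0 and 44.6 in LPS, and 98.6 and 91.7 in control. LPS+HACA and control overlapped, and LPS lay below both. Its log2 fold change was -1.22 ± 0.21 in LPS against control (adjusted p = 0.00456) and 1.24 ± 0.21 in LPS+HACA against LPS (adjusted p = 0.012). The second call was lost without LPS+HACA replicate 1 (adjusted p = 0.0678) or 2 (0.0702).

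Gpr155 (chr2:73341506-73386572), described in human cells as a lysosomal cholesterol sensor, had 5.16 and 2.16 CPM in LPS+HACA, 0.690 and 0.385 in LPS, and 4.77 and 6.22 in control. LPS was the lowest group without overlap, on 7 and 4 counts. In Gpr155 30.03% of exonic bases belong to 1 transcript, so its count leaves out reads on shared bases. Gm13703 and Gm13709 overlap its exons on the opposite strand. Gm13703 had 12 and 2 counts in LPS+HACA, 0 and 0 in LPS, and 6 and 14 in control. Gm13709 had 10 and 4, 0 and 1, and 8 and 12 in the same groups. Whether reads of these genes enter the Gpr155 count was not tested. The log2 fold change of Gpr155 was -3.33 ± 0.59 in LPS against control (adjusted p = 0.0047) and 2.76 ± 0.59 in LPS+HACA against LPS (adjusted p = 0.0232). The second call was lost without control replicate 1 (adjusted p = 0.0537) or 2 (0.0576), LPS replicate 2 (0.068) or LPS+HACA replicate 1 (0.124, where the value was 2.02), and in limma-voom.

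Gpr180 had 12.8 and 14.1 CPM in LPS+HACA, 7.78 and 5.88 in LPS, and 19.2 and 24.5 in control. It was lower in LPS than in control, at -1.68 ± 0.28 (adjusted p = 0.00389), and LPS+HACA lay between the groups at 0.98 ± 0.28 against LPS (adjusted p = 0.0553). Gpr107, a Golgi protein of receptor recycling and toxin transport, had 144 and 171 CPM in LPS+HACA, 130 and 178 in LPS, and 173 and 163 in control. Its groups overlapped in LPS against control and in LPS+HACA against LPS, at -0.13 (adjusted p = 0.713) and 0.03 (adjusted p = 0.949). With library totals both differences of Gpr107 were called, at -0.79 (adjusted p = 0.0217) and 0.69 (adjusted p = 0.0481).

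Gpr157, a ciliary receptor of neural progenitors, completed the 10 most counted members, with 31.0 and 41.3 CPM in LPS+HACA, 15.0 and 28.1 in LPS, and 27.9 and 43.3 in control. Neither -0.72 ± 0.36 in LPS against control (adjusted p = 0.171) nor 0.75 in LPS+HACA against LPS (adjusted p = 0.207) passed. Both were called with library totals, at -1.40 (adjusted p = 0.0161) and 1.43 (adjusted p = 0.0259), and also with the replicate number as a block. Gpr171, known from T cells, fell outside the 10 and is named because LPS+HACA held no count of it: 0 and 0 in LPS+HACA, 1 and 3 in LPS, and 22 and 15 in control. With 3 counts set as a floor for LPS+HACA, it was 12.4-fold lower there than in control. The counting interval, which includes error in the control count, reached down to 9.6-fold. The gene was picked for its empty LPS+HACA libraries, and its 37 control counts brought it over the count minimum for members. That fold is therefore a description and not a test. The ratio of LPS to control was 0.164, with a counting interval of 0.0423 to 0.455, and neither difference passed (adjusted p = 0.0749 and 0.0712). The other tested members, among them Gpr21, Gpr176, Gpr82, Gpr182, Gpr151, Gpr161 and Gpr17, stayed under 10 CPM and were not called in any comparison.

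LPS+HACA against control shares libraries with both other comparisons. Of the 33 tested members, 2 were called higher and 0 lower (6.06%), beside 1.15% of all genes, with 0.894% higher and 0.257% lower. Among the same 33, 18 of the 33 had groups that did not overlap, beside 46.5% of all genes. The called genes were Gpr84, with a log2 fold change of 1.89 ± 0.26 (adjusted p = 0.0209), and Gpr141, with 1.40 ± 0.21 (adjusted p = 0.0283). Both calls were lost when any control or LPS+HACA library was left out, with adjusted p up to 0.29 for Gpr84 and 0.353 for Gpr141. Gpr85, at 1.31, missed the threshold (adjusted p = 0.0749), as did Gpr55, at 2.08 (adjusted p = 0.112).

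The genes that carry a receptor's signal were read as lists. Of 23 tested G protein subunit genes, 7 were higher and 6 lower in LPS against control, which becomes 3 and 10 with library totals. Gnb4 rose by 2.05 ± 0.23 on the log2 scale (adjusted p = 0.000821), with 29.4 and 31.6 CPM in LPS+HACA, 69.2 and 55.4 in LPS, and 15.1 and 15.0 in control. Gng4 rose by 1.75 ± 0.41 (adjusted p = 0.0148), a call lost with library totals (adjusted p = 0.0596). Gnb5, the beta subunit that pairs with RGS proteins, fell by 4.69 ± 0.96 (adjusted p = 0.00892) at under 2 CPM in each library, and Gngt2 fell by 2.62 ± 0.43 (adjusted p = 0.00341). In LPS+HACA against LPS 1 subunit was higher and 3 were lower, a balance that turns to 6 higher and 0 lower with library totals. Without that scaling 56.5% and 17.4% of the 23 were called in these comparisons, beside 30.1% and 13.4% of all genes.

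Of 7 arrestin and receptor kinase genes, 2 fell and 0 rose in LPS against control, and 5 were lower with library totals. The 2 calls are 28.6% of the 7, close to the 30.1% called over all genes. For LPS+HACA against LPS the share was 14.3%, close to the 13.4% of all genes. Arrb1, which encodes beta-arrestin 1, had 33.3 and 38.7 CPM in LPS+HACA, 9.26 and 19.7 in LPS, and 40.1 and 44.7 in control. It fell by 1.55 in LPS (adjusted p = 0.0137) and was higher in LPS+HACA than in LPS by 1.32 (adjusted p = 0.046). Arrb2 fell by 1.24 ± 0.32 in LPS (adjusted p = 0.0213).

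Among 17 tested genes of cyclic AMP signalling, the adenylyl cyclases, phosphodiesterases and protein kinase A subunits, 1 rose and 4 fell in LPS against control, and 8 were lower with library totals. Set against LPS, LPS+HACA had 2 of the 17 higher and 1 lower. The called shares in these comparisons, 29.4% and 17.6%, lay near the 30.1% and 13.4% of all genes. Pde4b, a phosphodiesterase that degrades cyclic AMP, had 118 and 182 CPM in LPS+HACA, 443 and 635 in LPS, and 52.6 and 71.0 in control. Pde4b changed by a log2 fold change of 3.12 ± 0.32 in LPS against control (adjusted p = 0.00055) and -1.85 in LPS+HACA against LPS (adjusted p = 0.0109). Adcy7, a myeloid adenylyl cyclase that makes it, had 8.32 and 6.36 CPM in LPS+HACA, 2.56 and 2.41 in LPS, and 12.7 and 12.7 in control. It changed by -2.35 in LPS against control (adjusted p = 0.00136) and by 1.56 in LPS+HACA against LPS (adjusted p = 0.0176).

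**Figure D4:**
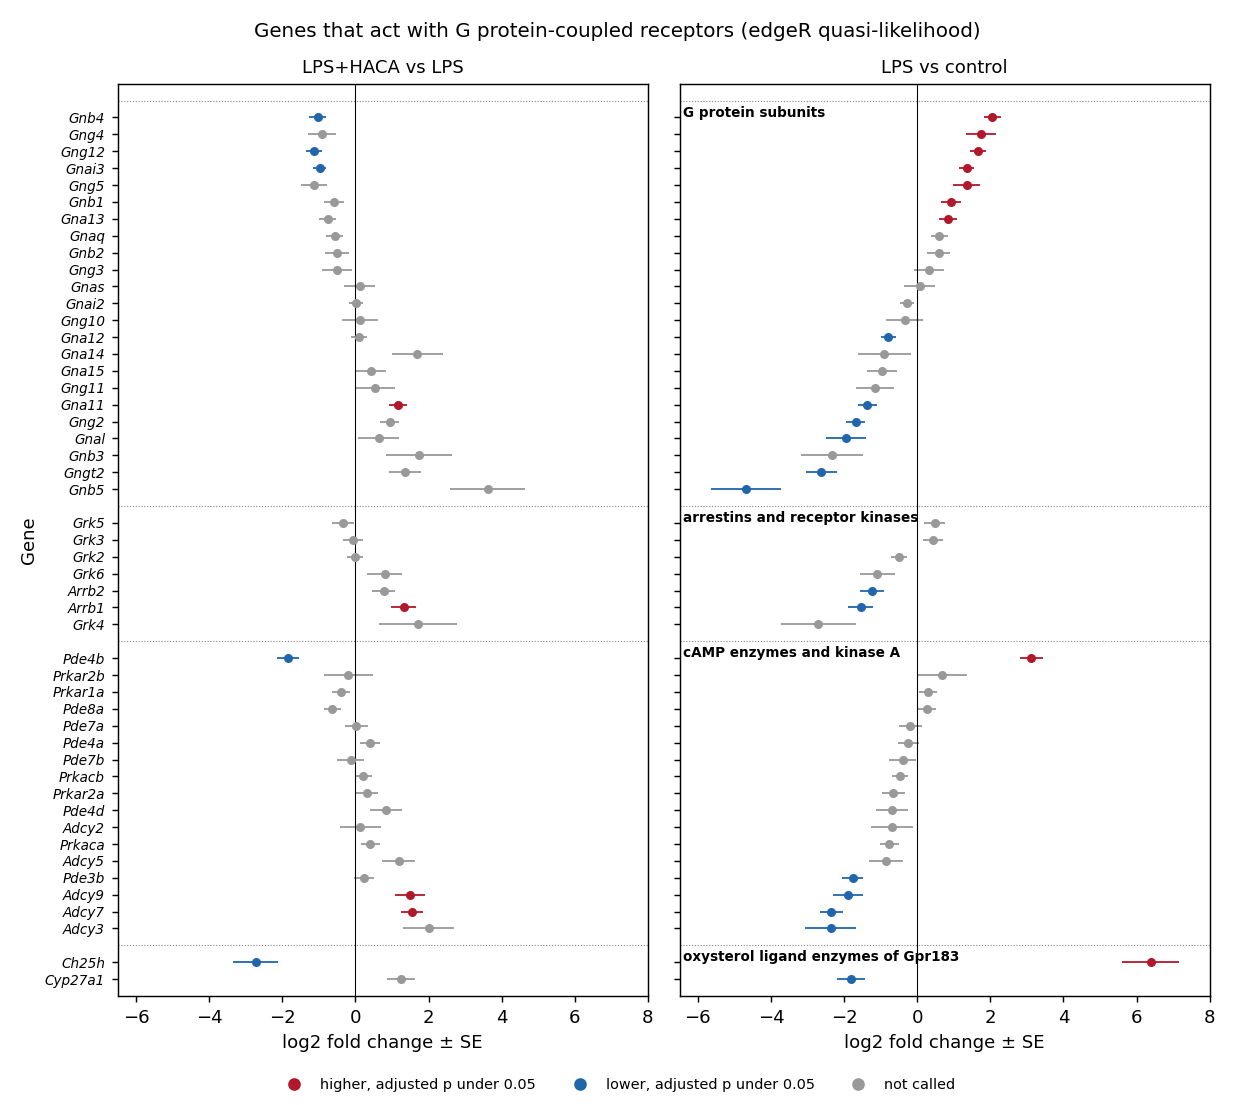
Log2 fold change with its standard error for G protein subunits, arrestins and receptor kinases, cyclic AMP enzymes with protein kinase A, and oxysterol enzymes, in LPS+HACA against LPS and in LPS against control, coloured by call. In LPS against control Ch25h lies farthest to the right, at 6.39, and Gnb5 farthest to the left, at -4.69.

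A list of related receptors under other symbols, only some of which once had a Gpr symbol, held 8 tested genes. Of these, 2 rose and 1 fell in LPS against control. That is 37.5% of the 8, beside 30.1% of all genes. Hcar2, the niacin and ketone body receptor once named Gpr109a, had 25.7 and 35.2 CPM in LPS+HACA, 293 and 495 in LPS, and 4.08 and 3.17 in control. Its log2 fold change was 6.76 ± 0.39 in LPS against control (adjusted p = 0.000105), -3.69 in LPS+HACA against LPS (adjusted p = 0.00266) and 3.07 in LPS+HACA against control (adjusted p = 0.0115). Ccrl2, a chemerin-binding receptor, gave 6.32, -3.47 and 2.85 in the same comparisons, and all passed. Lpar6, a lysophosphatidic acid receptor, had 45.2 and 44.9 CPM in LPS+HACA, 15.2 and 8.19 in LPS, and 121 and 127 in control, at -3.41 in LPS against control (adjusted p = 0.000391).

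Of 6 adhesion receptors tested, 2 rose and 1 fell in LPS against control, a balance that turns to 1 higher and 2 lower with library totals. Without that scaling 50% of the 6 were called, beside 30.1% of all genes. Adgrg6 had 12.3 and 13.4 CPM in LPS+HACA, 77.3 and 65.6 in LPS, and 5.14 and 6.02 in control, at 3.68 ± 0.26 in LPS against control (adjusted p = 0.000157) and -2.48 ± 0.24 in LPS+HACA against LPS (adjusted p = 0.00272). Adgre5, which encodes CD97, gave -2.62 ± 0.43 and 2.10 ± 0.44 in the same comparisons (adjusted p = 0.00368 and 0.0214).

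Some markers of macrophages and dendritic cells moved with the groups. Of 11 tested macrophage markers, 2 rose and 4 fell in LPS against control, and 0 rose and 2 fell in LPS+HACA against LPS. Called shares were 54.5% and 18.2%, beside 30.1% and 13.4% of all genes. With library totals the marker counts became 2 higher and 8 lower, and 5 higher and 1 lower. The list's summed level was 31700 and 34500 CPM in LPS+HACA, 43300 and 54600 in LPS, and 41600 and 40100 in control. Most of that sum was Lyz2 alone, at 30400 and 32900 CPM in LPS+HACA, 39300 and 47800 in LPS, and 40400 and 38700 in control. The sum therefore does not describe the list as a whole. Of 5 tested dendritic cell markers, Xcr1 and Fscn1 rose and 0 fell in LPS against control, 40% beside 30.1% of all genes. The other 3 were not called: Flt3 and Zbtb46 overlapped between LPS and control, and Ccr7 was higher in LPS without overlap. Summed levels of the dendritic cell list were 12 and 14.2 CPM in LPS+HACA, 39.6 and 48.6 in LPS, and 9.10 and 10.5 in control. In LPS most of that sum was Xcr1, at 18.7 and 13.6 CPM, and Fscn1, at 14.7 and 21.7 CPM. Summed B and plasma cell markers were 13.7 and 8.25 CPM in LPS+HACA, 3.15 and 3.76 in LPS, and 12 and 13.6 in control, with Ighm called lower in LPS. T and NK cell markers and mast cell markers summed to at most 0.473 CPM in any library. Whether these differences have a part in those of the receptor genes was not tested.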

How the data were processed

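Poly-A selected RNA of 6 macrophage libraries was made into TruSeq libraries, per the labels. The authors deposited whole-number read counts and FPKM values for each annotated transcript, per the file headers. Tools named in the submitters' processing notes are STAR 2.5.4b, DESeq2 1.26.0, edgeR 3.28.1, limma, Trim Galore and CASAVA, and builds are GRCh38 and GRCm38, in no stated role. The counting program and its use of strand are not stated there. Of all counts, 99.2% fell on transcripts with at least 100 bases that they share with none, and 0.0672% on the 26.0% of transcripts lacking any such base, so reads on shared bases are largely missing and genes with overlapping isoforms are understated, also in FPKM.

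Genes were the planned unit, so counts were summed per gene with GENCODE vM21 (141524 of 142647 transcripts matched, the others with up to 0.115% of the counts in a library). The test was edgeR 4.0.16 (R 4.3.3) quasi-likelihood with TMM factors and filterByExpr, fitted to all 6 libraries with 3 residual degrees of freedom and adjusted by Benjamini-Hochberg over 17113 genes, two-sided. It was also run on simulated data with as many genes raised as lowered, which cannot show how the scaling affects the calls. CPM are TMM-scaled, and FPKM were used only to compare levels between genes. Intervals are 95% and exact for the ratio of summed counts. Floors are 3 counts and leave out error in the count of the other group. Intervals and floors cover counting error only. Alternatives were DESeq2 1.42.0, limma-voom (limma 3.58.1), library totals in place of TMM, no filter, the replicate number as a block, the main transcript of each gene, a minimum of 100 counts, and each library left out in turn.

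The members, lists and tests were chosen with earlier results of these data known. Values per library are given for members called in LPS against control or in LPS+HACA against LPS and for the 10 most counted. Of other lists up to 2 called genes per direction and comparison are named, by size of change, and the 3 genes most like the called member with the largest change. Gpr171, Gpr4, the genes of the ligand enzymes and Lyz2, Adgre1, Ighm, Xcr1, Fscn1, Flt3, Zbtb46 and Ccr7 are named besides these, after their values were seen. Some genes are counted but not reported here by name.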

Additional observations from a re-analysis of the deposited data

How the results depend on the processing

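Every alternative named in the processing was run. With scaling by library totals, lower receptor genes in LPS against control became 15 and higher ones in LPS+HACA against LPS 11, and over all genes the counts became 1417 higher and 5111 lower (main 2715 and 2442), 3501 and 522 (main 983 and 1312), and 24 lower in LPS+HACA against control (main 44), with 21.7%, 87.0% and 84.0% of calls higher in place of 52.6%, 42.8% and 77.7%. It shifted the median of all genes to -0.69 in LPS against control, 0.70 in LPS+HACA against LPS and 0.01 in LPS+HACA against control. In LPS+HACA against control, DESeq2 called 4 receptor genes higher, with 466 and 200 of all genes higher and lower. Without the filter 5 and 1 receptor genes were called there, with 661 and 250 of all genes, and 1845 of all genes were higher in LPS+HACA against LPS. In limma-voom, 588 of all genes were higher in LPS+HACA against LPS and 82 in LPS+HACA against control.

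Equal replicate numbers are not said to pair the libraries, and with only 2 numbers their deviations correlated at 0.308 to 0.509. With the replicate number as a block, receptor calls in LPS+HACA against control became 6 higher and 1 lower, with 628 and 307 of all genes, and 1955 and 2356 of all genes were called in LPS+HACA against LPS. In LPS against control the block gave 7 receptor genes higher and 9 lower, adding Gpr137 and Gpr157 (-0.75, adjusted p = 0.0167) to the lower ones. For LPS+HACA against LPS it gave 6 and 5, adding Gpr157 (0.80, adjusted p = 0.0206) and Gpr180 (0.98, adjusted p = 0.0226) to the higher and Gpr55 (-1.15, adjusted p = 0.0136) to the lower ones. The added calls in LPS+HACA against control were Gpr132, Gpr18, Gpr55 and Gpr85, higher, and Gpr171, lower. No receptor call was lost under the block.

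Leaving out 1 library, the lone library being assumed to vary like the others, gave 5 to 7 receptor genes higher and 6 to 9 lower in LPS against control, 2 to 7 and 2 to 4 in LPS+HACA against LPS, and 0 to 4 and 0 to 1 in LPS+HACA against control. Over all genes the ranges were 1190 to 3024 higher and 916 to 2817 lower, 152 to 1617 and 216 to 1793, and 0 to 420 and 0 to 186.

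Signs turned only for values that were not called. In LPS against control, Gpr107 gave -0.37 to 0.09 with 1 library left out. In LPS+HACA against LPS, Gpr107 gave -0.18 to 0.27 with 1 library left out (-0.11 without LPS+HACA replicate 2) and 0.00 in DESeq2, Gpr132 gave -0.92 to 0.17 with 1 library left out and 0.21 with library totals, and Gpr31b gave 0.01 with library totals. In LPS+HACA against control, the leave-one-out ranges were -0.23 to 0.04 for Gpr107, -0.24 to 0.31 for Gpr65, -0.03 to 0.06 for Gpr137b and -0.27 to 0.38 for Gpr157, the last at -0.19 without LPS+HACA replicate 2, and Gpr65 gave 0.00 in DESeq2 and under the replicate block. The cause was not tested. With 2 libraries a group, depth limits the members under 1 FPKM and those with few counts in LPS, such as Gpr162 and Gpr155.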
